A study of Mus musculus with 7 samples.

Results

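The Cyp2c genes encode a family of cytochrome P450 enzymes that sit in the endoplasmic reticulum of the hepatocyte and oxidise drugs, fatty acids, retinoids and bile acids. Electrons reach them from the reductase encoded by Por, and several mouse members turn arachidonic acid into epoxides or hydroxylated products. The family grew by tandem duplication, so that neighbouring genes are close copies, and its transcription in liver is known to respond to the nuclear receptors CAR (Nr1i3) and PXR (Nr1i2) and to HNF4A. Here 10 members were followed by name: Cyp2c29, Cyp2c37, Cyp2c38, Cyp2c39, Cyp2c44, Cyp2c50, Cyp2c54, Cyp2c67, Cyp2c68 and Cyp2c70. Of the 51426 genes in the count tables, 9 were found by symbol and 1, Cyp2c44, by its identifier ENSMUSG00000025197, since the tables list it under its other symbol, Cyp2c23. All 10 passed the filter on low counts, which left 14754 genes for the test.

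The livers came from male mice, labelled C57BL/6J in both groups, fed a high fat diet (HFD) for 16 weeks, a feeding model of metabolic dysfunction-associated steatotic liver disease, and the question was how mRNA levels differ when TET1 is missing. TET1 is a dioxygenase that oxidises methylated cytosine in DNA. The groups were 3 WT livers and 4 livers of mice lacking TET1 (TET1 KO). The deletion was in the whole body, so it was not limited to hepatocytes, and the study names its source as B6;129S4-Tet1tm1.1Jae/J, a strain of mixed background. Whole liver was sequenced, and a lower level in such a sample cannot be told apart from fewer cells of a type. Total counts ran from 15005277 to 22746138 per library. Tet1 itself had 1 to 4 counts in each WT library and 1 to 4 in each TET1 KO library, too few to check the genotype labels. The summed level of the 9 hepatocyte markers found was 77500 to 95570 CPM (counts scaled to library size with edgeR's TMM factors) in WT and 92250 to 100200 CPM in TET1 KO livers. edgeR called none of these (2 at an unadjusted p under 0.05) and DESeq2 called Apoa1 higher. Such counts are to be read against all tested genes, of which 26.3% had an unadjusted p under 0.05 in edgeR, while DESeq2 called 4.7% higher and 4.79% lower. Among the markers of other cells, those of Kupffer cells, endothelium, stellate cells, lymphocytes and neutrophils overlapped between the groups in summed level. edgeR called none of them, with 0 to 2 genes per list at an unadjusted p under 0.05, while DESeq2 called Lyve1, Col1a1 and Col3a1 lower and Cd4 higher. The 6 cholangiocyte markers, genes of the bile duct epithelium, summed to 29.8 to 38.04 CPM in WT and 46.33 to 68.54 CPM in TET1 KO livers. All 5 cholangiocyte markers tested had a log2 fold change above 0, and 3 were higher without overlap, as were 11.7% of all tested genes. None was called by edgeR (4 at an unadjusted p under 0.05), while DESeq2 called Epcam, Sox9 and Spp1 higher. TET1 KO replicate 4 held the highest Krt19 (6.68 CPM) and Epcam (4.87 CPM). The part of that shift in the Cyp2c values was not tested.

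On the GRCm38 build, 9 of the 10 members lay within 0.9002 Mb of chromosome 19, and Cyp2c44 stood alone 3.818 Mb beyond the last of them. In chromosomal order Cyp2c29 spans chr19:39287044-39330713, Cyp2c39 chr19:39347346-39569568, Cyp2c38 chr19:39389556-39463103, Cyp2c67 chr19:39608844-39649079, Cyp2c68 chr19:39688836-39741101, Cyp2c37 chr19:39992424-40012243, Cyp2c54 chr19:40037939-40073845, Cyp2c50 chr19:40089679-40113955, Cyp2c70 chr19:40153361-40187286 and Cyp2c44 chr19:44005022-44029256. The RefSeq span of Cyp2c39 contains that of Cyp2c38, which is read from the opposite strand. RefSeq also lists a start of Cyp2c39 beyond the end of Cyp2c38 (promoter window chr19:39510572-39510871). Which span of Cyp2c39 was used for counting is not given. The library kit keeps the strand, but whether counting used it is not given in the sources used here, so reads of these 2 genes may not have been told apart by strand.

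How alike the members are decides how surely a read can be given to one of them. The coding parts fell into 3 groups of close copies. Cyp2c67 and Cyp2c68 shared 97.15% of aligned coding bases. Cyp2c37 shared 96.13% with Cyp2c50 and 95.11% with Cyp2c54, and Cyp2c50 shared 95.25% with Cyp2c54. Cyp2c38 and Cyp2c39 shared 94.23%, and Cyp2c29 shared 89.48% with Cyp2c39 and 89.14% with Cyp2c38. No pair from different groups passed 82.96%, and Cyp2c70 and Cyp2c44 had no close copy among the members.

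**Figure D1:**
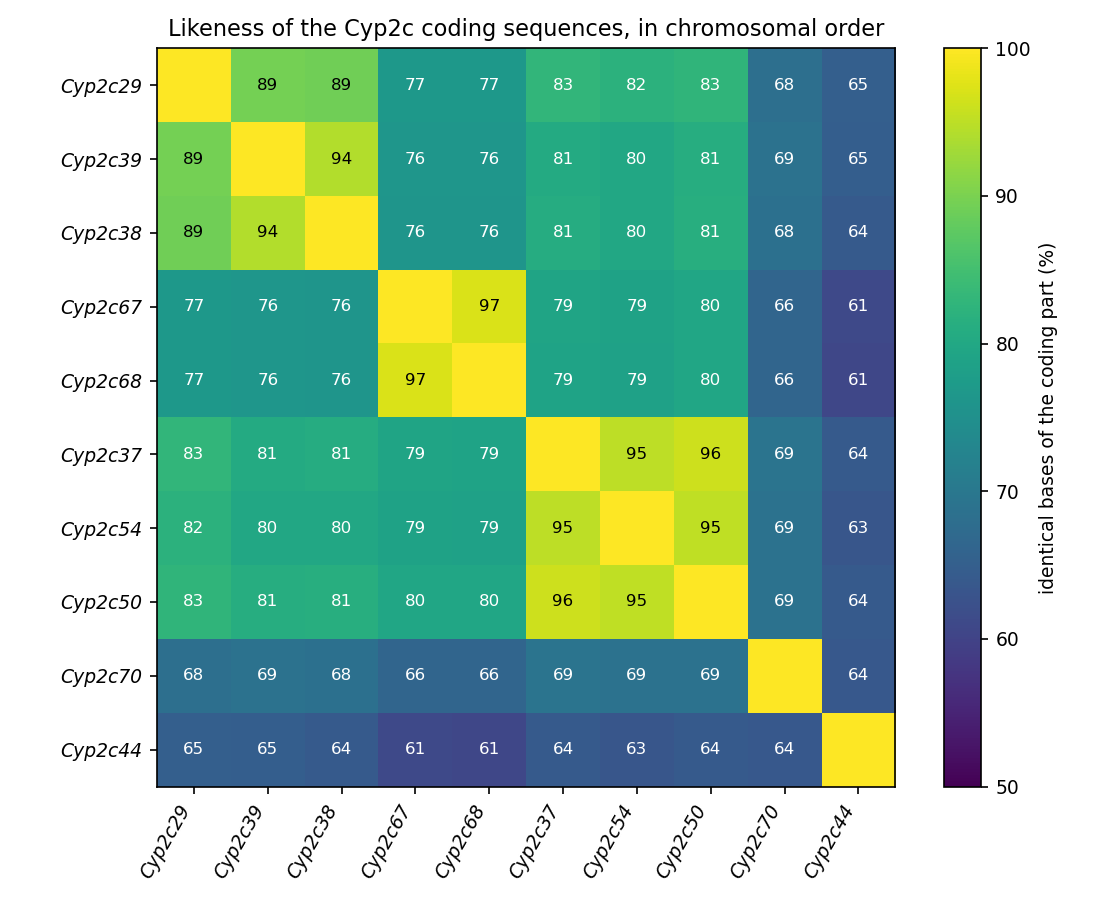
Each square gives the share of identical bases (%) between the coding parts of the member in its row and the member in its column, in chromosomal order, on a colour scale from 50% to 100%. The 3 blocks of high identity are Cyp2c29 with Cyp2c39 and Cyp2c38, Cyp2c67 with Cyp2c68, and Cyp2c37 with Cyp2c54 and Cyp2c50, while the rows of Cyp2c70 and Cyp2c44 stay low.

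The stretches below show what separates the copies, since the differing bases are all that a read has to place it. Each is a 60-base window of the GENCODE M1 coding sequence, and capitals mark positions at which the copies shown are not all the same. For the group that holds the member with the largest rise, coding bases 791 to 850 contain 13 of the 98 positions that differ along 1473 bases.
Cyp2c37: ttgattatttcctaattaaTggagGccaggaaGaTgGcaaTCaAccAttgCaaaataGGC
Cyp2c50: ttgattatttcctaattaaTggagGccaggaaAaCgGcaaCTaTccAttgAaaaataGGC
Cyp2c54: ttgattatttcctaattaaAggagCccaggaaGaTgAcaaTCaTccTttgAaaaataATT

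For the group that holds the member with the largest fall, coding bases 279 to 338 contain 17 of the 196 differing positions along 1473 bases.
Cyp2c29: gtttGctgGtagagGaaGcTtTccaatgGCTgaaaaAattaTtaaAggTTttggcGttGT
Cyp2c38: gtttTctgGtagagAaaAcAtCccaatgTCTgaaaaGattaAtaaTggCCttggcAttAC
Cyp2c39: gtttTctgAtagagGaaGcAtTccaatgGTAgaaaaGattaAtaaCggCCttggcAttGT

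For the closest pair, coding bases 1060 to 1119 contain 8 of only 42 differing positions along 1476 bases.
Cyp2c67: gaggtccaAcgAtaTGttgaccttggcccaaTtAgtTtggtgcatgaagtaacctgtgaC
Cyp2c68: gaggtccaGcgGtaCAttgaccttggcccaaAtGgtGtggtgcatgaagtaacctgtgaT

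Windows of 100 bases give a measure of the risk for reads. Of all such windows in its longest transcript, Cyp2c67 shared 23.7% exactly with another Cyp2c gene and Cyp2c68 shared 19.82%. The shares were 9.399% for Cyp2c50, 7.665% for Cyp2c54 and 4.696% for Cyp2c37. Cyp2c29, Cyp2c38, Cyp2c39, Cyp2c44 and Cyp2c70 shared none with another Cyp2c gene. At 50 bases the shares were 53.48% for Cyp2c67, 25% for Cyp2c54 and 7.447% for Cyp2c38. With windows of 150 bases they were 13.01% for Cyp2c67, 3.025% for Cyp2c54 and 0% for Cyp2c38. Whether reads that match several places were counted is not given in the sources used here, so the split of reads within a group is uncertain.

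edgeR called 1 Cyp2c gene higher and 1 lower in TET1 KO livers. Cyp2c54 rose 3.56-fold and Cyp2c38 fell to 0.209 of its WT mean, and the other 8 members did not pass the test (edgeR's quasi-likelihood test, Benjamini-Hochberg adjusted p under 0.05 over all tested genes). Across all tested genes edgeR called 0.874% higher and 1.15% lower. At an unadjusted p under 0.05 in edgeR were 8 of the 10 members, against 26.3% of all tested genes. The members were, however, chosen with earlier results of these data known. DESeq2 called 2 members higher and 3 lower, against 4.7% and 4.79% of all tested genes. Values of the genotypes did not overlap for 7 members. In 2 of these the TET1 KO values were all above the WT values, a pattern that 11.7% of all tested genes showed, and in 5 they were all below, against 10.8% of all tested genes. The median log2 fold change of the 10 members was -0.17, beside 0.01 for all tested genes, with 5 members above 0 and 5 below. The direction followed the order on the chromosome. The 5 members from Cyp2c29 to Cyp2c68 all had values below 0, and the 5 from Cyp2c37 to Cyp2c44 all had values above 0, although that of Cyp2c50 was near 0 and changed sign in 5 of 14 alternative settings, library size scaling among them. This ordering was seen after the values and is given as a description.

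**Figure D2:**
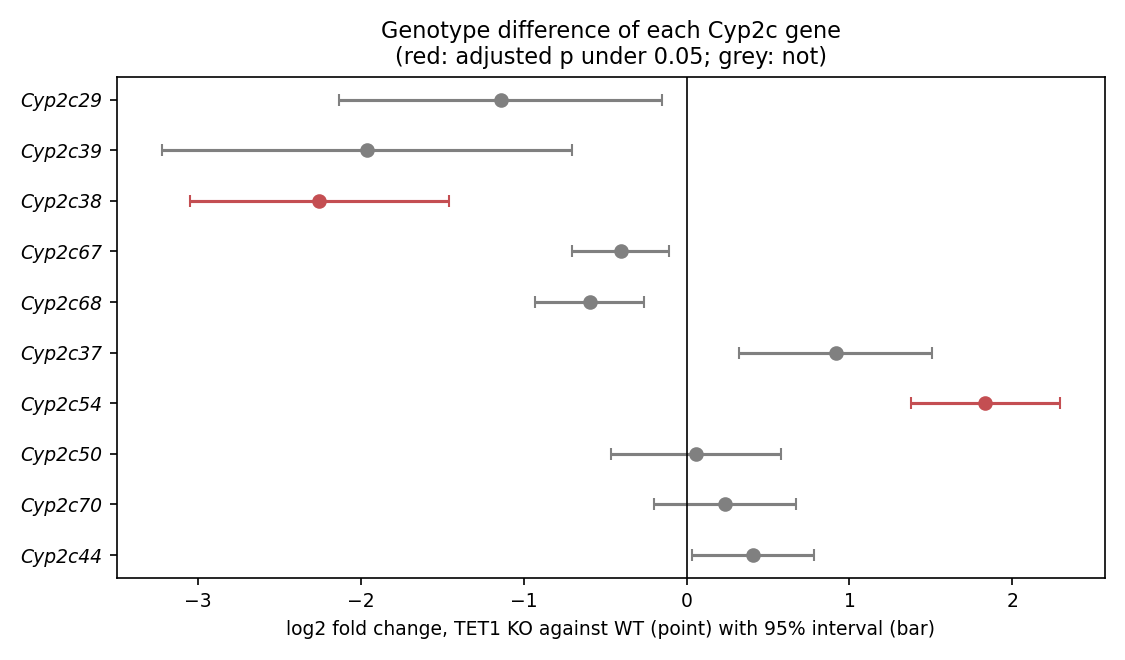
Each point is the log2 fold change of a Cyp2c gene, TET1 KO against WT (3 WT and 4 TET1 KO livers), with its 95% interval as a bar and the genes in chromosomal order from top to bottom. Cyp2c38 at -2.26 and Cyp2c54 at 1.83 are drawn in red as the members with an adjusted p under 0.05, and the interval of Cyp2c50 lies across 0.

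Cyp2c54 encodes an enzyme that metabolises arachidonic and linoleic acid. Its level was 51.1, 55.6 and 58.4 CPM in the WT livers and 144, 234, 249 and 157 CPM in the TET1 KO livers. The groups were far apart, since even TET1 KO replicate 1, the lowest, was far above the highest WT liver, and the WT livers varied little among themselves (coefficient of variation 6.69%). The WT mean was 55.0 ± 3.68 CPM (SD, n = 3) and the TET1 KO mean 196 ± 53.1 CPM (SD, n = 4). On the log2 scale this was 1.83 ± 0.21 (SE) with an adjusted p of 0.00343 in edgeR, the 12th smallest p of all tested genes. It was called in all 14 alternative settings, with log2 fold changes from 1.69 to 1.96.

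Cyp2c37 and Cyp2c50, its neighbours and closest copies, also act on arachidonic and linoleic acid. Cyp2c37 was at 197, 199 and 115 CPM in WT and at 286, 227, 478 and 295 CPM in TET1 KO livers. The groups did not overlap, with TET1 KO replicate 3 the highest, but the log2 fold change of 0.91 ± 0.27 (SE) had an adjusted p of 0.0828 in edgeR and of 0.0165 in DESeq2. Cyp2c50 was at 449, 574 and 423 CPM in WT and at 304, 508, 649 and 547 CPM in TET1 KO livers. Its TET1 KO livers lay on both sides of the WT range, and the log2 fold change of 0.06 had a 95% interval from -0.46 to 0.58, which lies wholly below that of Cyp2c54 (1.38 to 2.29). A log2 change of 1 in either direction is outside the interval of Cyp2c50. Of the reads counted on these 3 genes, Cyp2c54 took 7.33%, 6.70% and 9.80% in WT and 19.6%, 24.2%, 18.1% and 15.8% in TET1 KO livers. Cyp2c50 took 64.4%, 69.2% and 70.9% in WT and 41.4%, 52.4%, 47.2% and 54.7% in TET1 KO livers. The summed level of the group was 697, 829 and 596 CPM in WT and 734, 969, 1376 and 998 CPM in TET1 KO livers. That sum overlapped between genotypes (ratio of means 1.44), as did the share of Cyp2c37, while the shares of Cyp2c54 and Cyp2c50 did not.

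Cyp2c38 encodes an arachidonic acid epoxygenase. It was at 101, 115 and 45.9 CPM in WT and at 9.45, 17.7, 17.0 and 29.0 CPM in TET1 KO livers. No TET1 KO liver reached the lowest WT liver, which was itself well below the other two. The WT mean was 87.5 ± 36.8 CPM (SD, n = 3) and the TET1 KO mean 18.3 ± 8.05 CPM (SD, n = 4), which is -2.26 ± 0.36 (SE) on the log2 scale with an adjusted p of 0.0151 in edgeR. The call was lost without WT replicate 2 (-2.01, adjusted p = 0.0924) and without TET1 KO replicate 3 (-2.24, adjusted p = 0.0559).

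Cyp2c29 and Cyp2c39 are the neighbours of Cyp2c38 and its closest copies. Cyp2c29 is an abundant epoxygenase of the liver that is known to be induced through CAR. It was at 442, 987 and 458 CPM in WT and at 88.4, 243, 380 and 429 CPM in TET1 KO livers. The groups did not overlap, but TET1 KO replicate 4 came close to the lowest WT liver and WT replicate 2 was above the rest, and the log2 fold change of -1.14 ± 0.45 (SE) had an adjusted p of 0.145 in edgeR. Without WT replicate 2 it was -0.66 (adjusted p = 0.529). Cyp2c39, known as a retinoic acid hydroxylase, was the scarcest member, at 1.67, 3.32 and 1.38 CPM in WT and at 0, 0.493, 0.614 and 0.974 CPM in TET1 KO livers. Those values rest on 34, 80 and 25 counts in WT and on 0, 7, 12 and 21 counts in TET1 KO. A difference of -1.96 ± 0.57 (SE) on the log2 scale had an adjusted p of 0.0811 in edgeR, of 0.02 in DESeq2 and, in edgeR, of 0.0485 without TET1 KO replicate 4 (-2.49). All 3 genes had their lowest value in TET1 KO replicate 1. Summed, the 3 genes were at 545, 1105 and 505 CPM in WT and at 97.9, 261, 397 and 459 CPM in TET1 KO livers (ratio of means 0.423, no overlap). That sum does not turn on how reads were split among them, though it would miss any reads left uncounted for matching several places.

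Cyp2c67 and Cyp2c68 showed smaller differences. Cyp2c67 was at 129, 148 and 117 CPM in WT and at 108, 88.5, 92.8 and 108 CPM in TET1 KO, which gave -0.40 ± 0.14 (SE) on the log2 scale with an adjusted p of 0.103 in edgeR. Cyp2c68 was at 137, 161 and 123 CPM in WT and at 79.9, 87.1, 92.2 and 113 CPM in TET1 KO, which gave -0.60 ± 0.15 (SE) on the log2 scale with an adjusted p of 0.0645 in edgeR. Neither gene overlapped between genotypes and neither passed edgeR's test of genotype alone with all livers. Cyp2c68 passed with DESeq2 (adjusted p = 0.0117) and, in edgeR, without TET1 KO replicate 4, the highest TET1 KO liver (-0.70, adjusted p = 0.0334). Their sum, 266, 309 and 240 CPM in WT and 188, 176, 185 and 221 CPM in TET1 KO livers, also did not overlap (ratio of means 0.707).

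**Figure D3:**
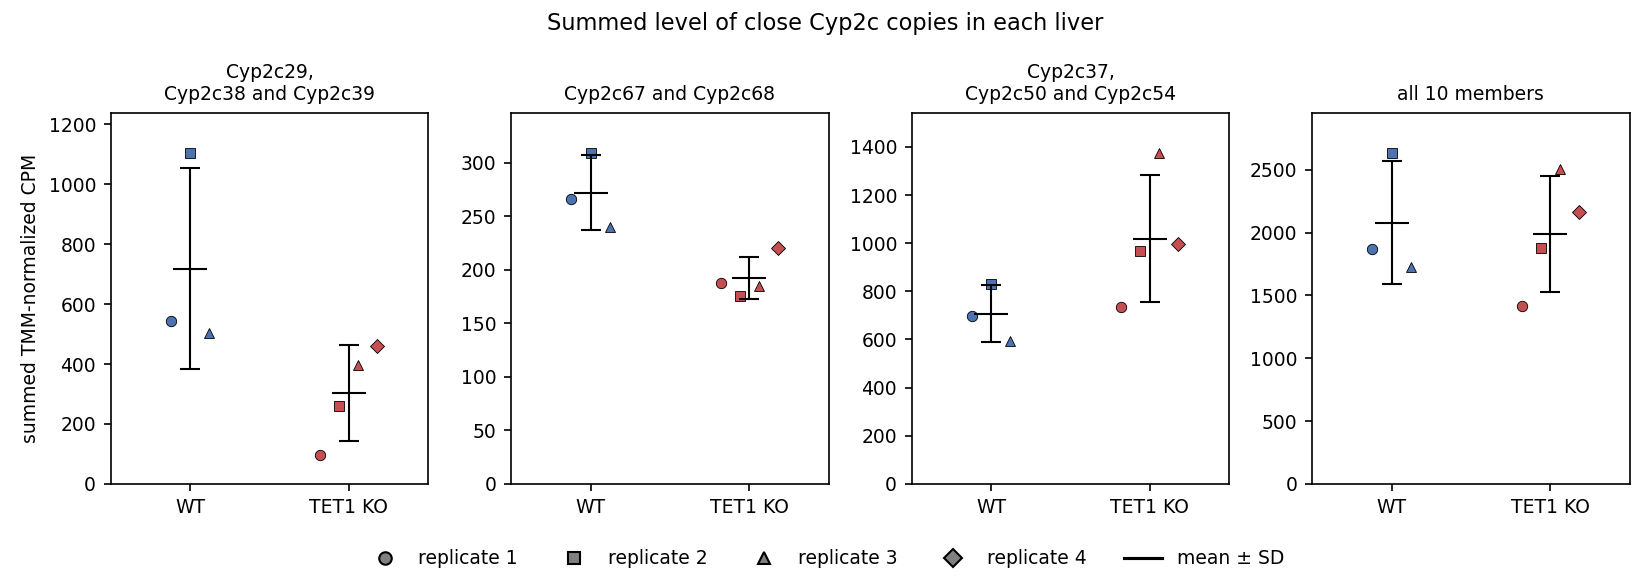
Summed TMM-normalized CPM of each group of close copies and of all 10 members, on axes from 0, with a symbol per liver (blue WT, red TET1 KO, shape by replicate number) and the mean ± SD. The sums of Cyp2c29, Cyp2c38 and Cyp2c39 and of Cyp2c67 and Cyp2c68 are lower in every TET1 KO liver, the sum of Cyp2c37, Cyp2c50 and Cyp2c54 overlaps, and the total runs from 1725 to 2635 CPM in WT and from 1415 to 2505 CPM in TET1 KO livers.

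The 2 members without a close copy were called by neither edgeR nor DESeq2. Cyp2c70 makes the muricholic acids of mouse bile from chenodeoxycholic acid. It was at 143, 184 and 217 CPM in WT and at 165, 188, 231 and 270 CPM in TET1 KO livers, which overlap, and the log2 fold change of 0.23 had a 95% interval from -0.20 to 0.67. Cyp2c44 is an arachidonic acid epoxygenase studied in kidney and blood vessels as well as in liver. It was at 218, 207 and 167 CPM in WT and at 231, 282, 316 and 217 CPM in TET1 KO livers. TET1 KO replicate 4 fell within the WT range. The log2 fold change of 0.41 ± 0.17 (SE) had a 95% interval from 0.03 to 0.78, with an unadjusted p of 0.0353 and an adjusted p of 0.161 in edgeR.

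**Figure D4:**
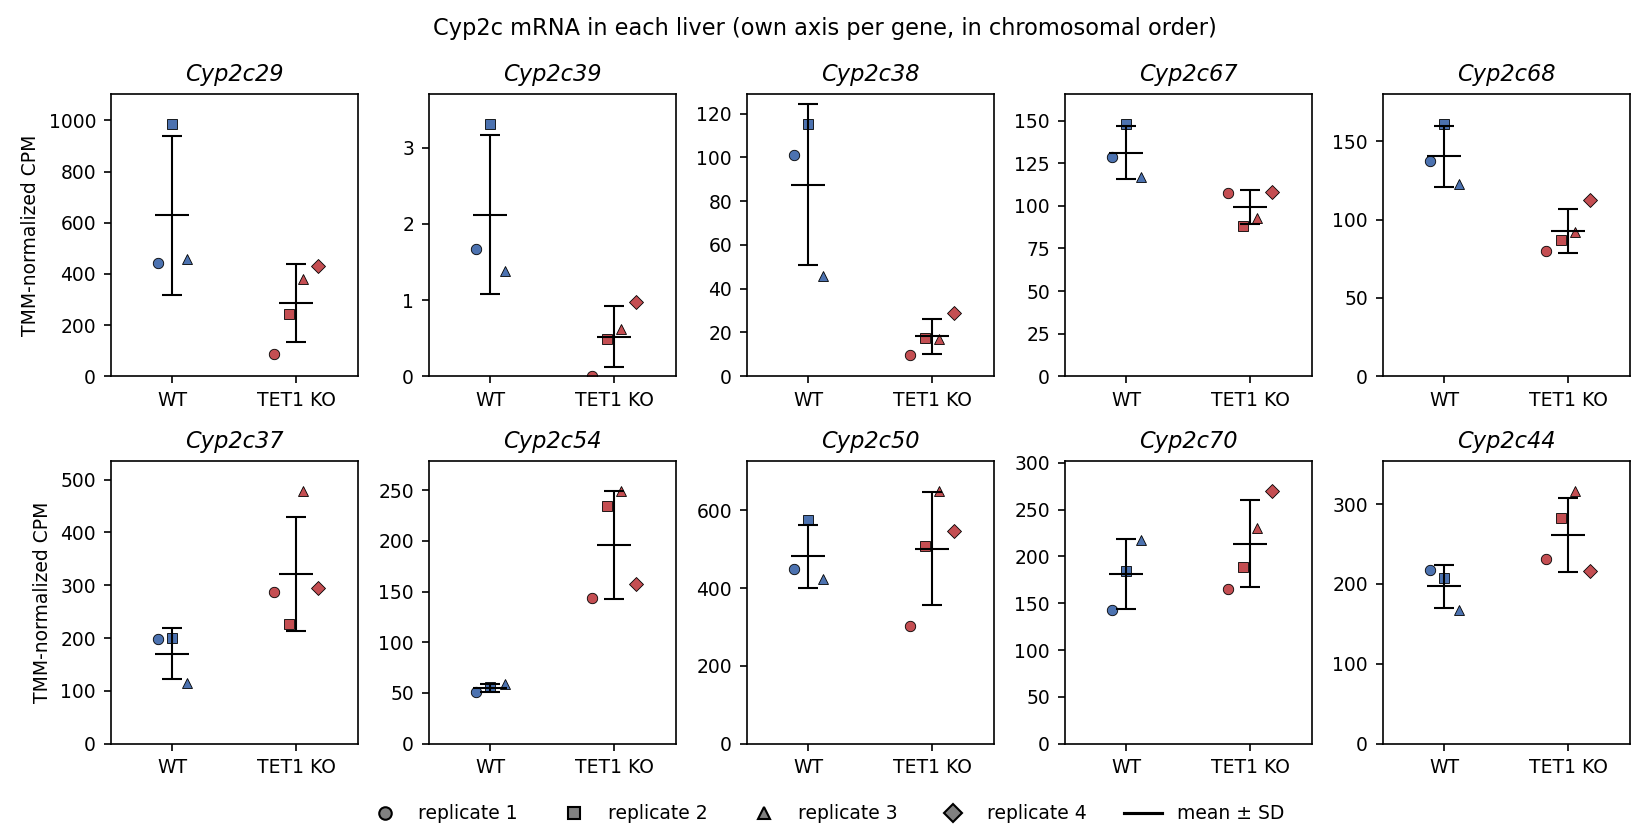
TMM-normalized CPM of each Cyp2c gene in each liver, a panel per gene with its own axis from 0, with symbols by replicate number (blue WT, red TET1 KO) and the mean ± SD. Cyp2c54 shows the clearest gap upward (51.1 to 58.4 CPM in WT, 144 to 249 CPM in TET1 KO) and Cyp2c38 the clearest gap downward, while Cyp2c50, Cyp2c70 and Cyp2c44 overlap.

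Because transcripts differ in length, the members were set beside each other as CPM per kilobase of the longest GENCODE M1 transcript. Cyp2c29 was the most abundant member in every WT liver, at 360 ± 178 CPM per kilobase (SD, n = 3), and Cyp2c50 came next in each, at 266 ± 44.8. In WT replicate 1 they were nearly tied (253 and 248 CPM per kilobase), and by CPM alone Cyp2c50 was higher there (449 against 442). Both coding parts have 1473 bases, so the order in that liver depends on the length used. In every TET1 KO liver Cyp2c50 came first, at 277 ± 80.0 CPM per kilobase (SD, n = 4), while Cyp2c29 stood between rank 2 and rank 7. The next WT members by mean were Cyp2c70 (106), Cyp2c44 (100), Cyp2c37 (93.5), Cyp2c68 (81.5) and Cyp2c67 (75.9 CPM per kilobase), whose order changed from liver to liver and which were not set apart beyond their spread. Cyp2c54 (31.1) and Cyp2c38 (30.5) followed, also within their spread of each other, and Cyp2c39 was last (1.17). The longest transcript of Cyp2c38 has 2869 bases against 1769 for Cyp2c54, while both coding parts have 1473. By CPM alone the WT mean of Cyp2c38 was the higher (87.5 against 55.0), so its rank and its share below depend on that length. In TET1 KO livers the order after Cyp2c50 was Cyp2c37 (176), Cyp2c29 (163), Cyp2c44 (133), Cyp2c70 (124), Cyp2c54 (111), Cyp2c67 (57.3), Cyp2c68 (53.9), Cyp2c38 (6.38) and Cyp2c39 (0.286 CPM per kilobase), with those from Cyp2c37 to Cyp2c54 overlapping. As a share of the summed Cyp2c level per kilobase, Cyp2c29 made up 24.8% to 38.8% in WT and 6.48% to 20.4% in TET1 KO livers. Cyp2c54 made up 2.16% to 3.44% in WT and 7.39% to 12.8% in TET1 KO livers, and Cyp2c38 1.67% to 3.45% and 0.421% to 0.840%. The share of Cyp2c50 stayed between 21.4% and 27.0% in all 7 livers.

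**Figure D5:**
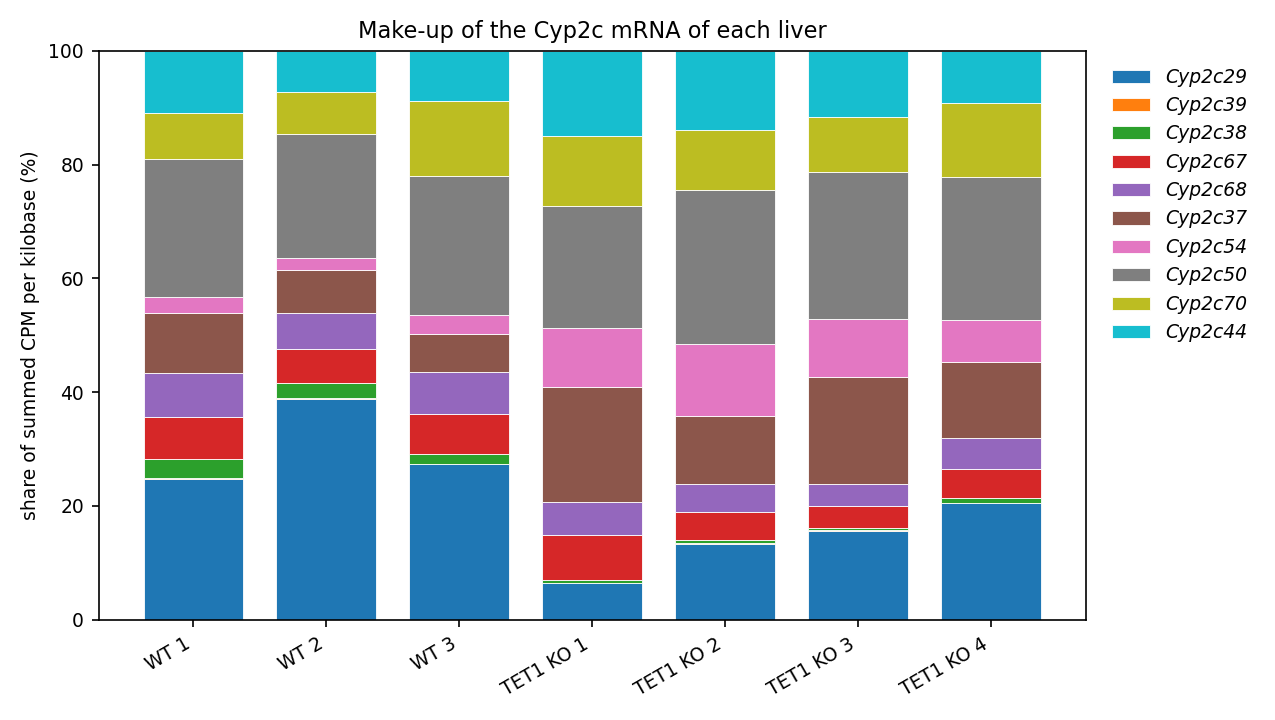
Stacked bars give each member's share (%) of the summed CPM per kilobase of the 10 Cyp2c genes in each liver, with the 3 WT livers on the left and the 4 TET1 KO livers on the right. The bottom segment, Cyp2c29, is the largest in each WT liver, though nearly tied with Cyp2c50 in WT replicate 1 (24.8% and 24.2%). Cyp2c50 is the largest in each TET1 KO liver, where the segments of Cyp2c54 and Cyp2c37 are also wider.

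Since TET1 acts on methylated CG dinucleotides, their number near the members' start sites is of interest, although no methylation was measured in these libraries. RefSeq promoter windows of the same build (250 bases before to 50 after the start, GRCm38.p6) were found for 8 members, all but Cyp2c54 and Cyp2c44. Those windows held 0 to 4 CG dinucleotides (searched as CG, which reads the same on both strands), while 94.6% of 32851 promoters in the table held at least 1 and the median was 7. The promoter of Cyp2c38 held none, as did 5.43% of all promoters, and that of Cyp2c70 held the most. A pair is printed from the group that was lower in TET1 KO livers and a pair from the close copies of Cyp2c54, with CG in capitals. Cyp2c29 is at chr19:39286835-39287134 on the plus strand, Cyp2c38 at chr19:39463026-39463325 on the minus strand, Cyp2c37 at chr19:39992174-39992473 on the plus strand and Cyp2c50 at chr19:40089429-40089728 on the plus strand.
Cyp2c29: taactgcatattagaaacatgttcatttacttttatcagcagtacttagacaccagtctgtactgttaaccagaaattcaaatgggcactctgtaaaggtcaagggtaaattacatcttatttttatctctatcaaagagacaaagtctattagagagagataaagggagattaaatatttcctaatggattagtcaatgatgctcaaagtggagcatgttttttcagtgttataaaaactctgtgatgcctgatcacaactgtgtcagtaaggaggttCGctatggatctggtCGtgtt
Cyp2c38: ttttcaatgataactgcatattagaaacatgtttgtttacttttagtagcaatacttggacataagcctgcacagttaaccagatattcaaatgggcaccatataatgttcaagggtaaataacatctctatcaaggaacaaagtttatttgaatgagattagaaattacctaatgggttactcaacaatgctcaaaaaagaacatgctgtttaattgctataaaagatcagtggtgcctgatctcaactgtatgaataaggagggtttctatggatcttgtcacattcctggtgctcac
Cyp2c37: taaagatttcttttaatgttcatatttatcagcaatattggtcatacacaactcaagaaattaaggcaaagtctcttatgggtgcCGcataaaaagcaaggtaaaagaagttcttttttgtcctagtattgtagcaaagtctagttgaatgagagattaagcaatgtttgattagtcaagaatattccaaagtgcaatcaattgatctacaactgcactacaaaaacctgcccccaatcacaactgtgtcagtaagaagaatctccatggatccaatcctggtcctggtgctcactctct
Cyp2c50: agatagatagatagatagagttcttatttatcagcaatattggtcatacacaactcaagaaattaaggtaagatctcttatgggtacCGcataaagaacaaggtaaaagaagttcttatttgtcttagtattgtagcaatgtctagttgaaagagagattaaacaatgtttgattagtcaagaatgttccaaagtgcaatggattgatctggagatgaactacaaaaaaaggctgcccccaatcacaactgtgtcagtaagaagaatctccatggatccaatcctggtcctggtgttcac

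Aligned end to end, the first pair shared 76% of its bases and the second pair 88%. The closer pair of promoters belongs to Cyp2c37, whose groups did not overlap, and Cyp2c50, whose groups did.

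The remaining Cyp2c genes were scarce. Of the 6 that were found, 3 were tested and none was called by edgeR or DESeq2 (2 at an unadjusted p under 0.05 in edgeR), all 3 with values below 0. Cyp2c69, 97.7% identical to Cyp2c67 in its coding part, was at 2.95, 3.73 and 2.32 CPM in WT and at 0.751, 0.564, 1.89 and 2.32 CPM in TET1 KO livers (-1.07, adjusted p = 0.135 in edgeR). Cyp2c40 had a log2 fold change of -0.83 (adjusted p = 0.135 in edgeR), with no overlap, and Cyp2c55 one of -1.13 (adjusted p = 0.265 in edgeR). Adding Cyp2c40 and Cyp2c69 to the sum of Cyp2c67 and Cyp2c68 left the ratio of means at 0.704. Neither edgeR nor DESeq2 called any of the 7 tested genes that flank Cyp2c44 (0 at an unadjusted p under 0.05 in edgeR), with a median log2 fold change of 0.02.

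The genes that act on or with the Cyp2c enzymes gave the following counts. Of 10 nuclear receptors and liver factors edgeR called none (2 at an unadjusted p under 0.05), and DESeq2 called Nr1i3 higher (0.55, adjusted p = 0.0449). Nr1i3 (CAR) was at 519, 423 and 323 CPM in WT and at 736, 584, 616 and 553 CPM in TET1 KO livers, higher without overlap but with an adjusted p of 0.105 in edgeR for a log2 fold change of 0.56. Nr1i2 (PXR) at 0.20 and Hnf4a at 0.12 were near 0. Of 14 other genes known to respond to CAR and PXR edgeR called none higher and 2 lower, DESeq2 called 4 lower, Abcc3 and Ugt1a1 in addition, and 13 had values below 0 (median -0.65). Those that fell in edgeR's test were Cyp3a11, the main drug-oxidising P450 of its family in mouse liver (-1.28, adjusted p = 0.0436 in edgeR), and Gstm3, a glutathione transferase (-1.73, adjusted p = 0.0224 in edgeR). Cyp2b10, the usual reporter of CAR activity, was at most 1.33 CPM in any liver. Of 8 electron donors and heme genes edgeR called none (4 at an unadjusted p under 0.05; DESeq2 called Hmox1 lower), and Por was at 0.06.

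Among 10 tested genes of arachidonic acid and epoxide metabolism edgeR and DESeq2 both called the same 2 lower and none higher. Ephx1, the microsomal epoxide hydrolase, was at 455, 552 and 320 CPM in WT and at 132, 163, 179 and 209 CPM in TET1 KO livers (-1.37, adjusted p = 0.0117 in edgeR). Cyp4a14, a fatty acid hydroxylase, fell with a log2 fold change of -2.15 (adjusted p = 0.0382 in edgeR), which was -1.42 without WT replicate 2 and lost its call with robust dispersions (adjusted p = 0.08). Ephx2, the soluble epoxide hydrolase that opens the epoxides Cyp2c enzymes make, had a value of 0.17 (adjusted p = 0.519 in edgeR). Among 11 genes of bile acid synthesis edgeR called 1 higher, Cyp7b1, an oxysterol hydroxylase (1.20, adjusted p = 0.0271 in edgeR), and DESeq2 called 2 higher, Cyp7b1 and Cyp27a1, while Cyp7a1 at -0.79 and Cyp8b1 at -0.78 did not pass. None of 10 tested genes of retinoic acid metabolism was called by edgeR or DESeq2 (1 at an unadjusted p under 0.05 in edgeR).

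Since several Cyp2c genes are known to be expressed mostly around the central vein, markers of liver zones were counted as well. None of 13 pericentral markers was called by edgeR (2 at an unadjusted p under 0.05; DESeq2 called Slc22a3 lower), with Glul at -0.37 and Cyp2e1 at 0.12. Their summed level was 9917 to 10500 CPM in WT and 6776 to 12180 CPM in TET1 KO livers, and the lowest sum was in TET1 KO replicate 1, which among TET1 KO livers was also lowest for Cyp2c29, Cyp2c38, Cyp2c39, Cyp2c50, Cyp2c54, Cyp2c68 and Cyp2c70. Of 11 periportal markers edgeR called 1 lower, Etnppl (-1.51, adjusted p = 0.0286 in edgeR), and DESeq2 called 2 lower, Etnppl and Hsd17b13. Of the 11, 9 had values below 0, with Cyp2f2 at -0.29, and 4 were lower without overlap, as were 10.8% of all tested genes. The part of these markers in the Cyp2c values was not tested. Leaving out WT replicate 2 ended the calls of Cyp3a11, Gstm3, Ephx1, Cyp4a14, Cyp7b1 and Etnppl (adjusted p from 0.0719 to 0.206), and each of these but Ephx1 also lost its call without TET1 KO replicate 2 and without TET1 KO replicate 3 (0.0567 to 0.103). Cyp3a11, Cyp4a14 and Cyp7b1 lost it without WT replicate 1 and without TET1 KO replicate 1 as well, and Etnppl without WT replicate 1 (0.0506 to 0.0738).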

How the data were processed

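RNA-seq of 3 WT and 4 TET1 KO livers was used. The deposited values were raw read counts per gene, 1 table per liver, with no normalization by the authors. The submitters' processing notes name Trimmomatic 0.36, GSNAP, featureCounts 1.5.3 and the GRCm38 build. The annotation release, the strand setting and the treatment of reads that match several places are not given in the sources used here.

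Tables were joined by Ensembl identifier after 5 repeated entries were left out of 51431, and 1 table, whose symbols held 26 dates in place of gene names, was read by identifier. Genes were filtered with filterByExpr, scaled with TMM factors and tested with the quasi-likelihood test of edgeR 4.0.16 in R 4.3.3 without covariates, as a difference between genotypes. Adjusted p-values are Benjamini-Hochberg values over 14754 genes, called under 0.05 and these genes took 99.88% or more of a library's reads. edgeR put the common biological coefficient of variation at 0.208. Standard errors and 95% intervals were derived from the fitted change and its F statistic, and the script was tested on simulated data. Alternatives were DESeq2 1.42.0, other scalings, filters and dispersions, a replicate block and leaving out each liver. No pair of libraries within a group agreed within sampling noise. The labels number the libraries as replicates, and p-values measure the spread between them.

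Coding sequences and transcript lengths came from GENCODE M1 and alignments from Biopython 1.88; amino acid sequences were not used here, so coding bases stood in for the planned protein comparison. Promoter windows and coordinates came from RefSeq GRCm38.p6. Members and gene lists were chosen with earlier results of these data known. The genes named were the 10 members, a fixed set of related genes, and every gene of the other lists that edgeR called. Genes that DESeq2 alone called are also named; they and the cholangiocyte levels given were chosen after the values were seen. The genes that flank the Cyp2c cluster are not reported here.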

Additional observations from a re-analysis of the deposited data

Results flagged for a closer look

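For 3 genes a value stood out because 1 of the 4 TET1 KO livers lay far from the other 3 relative to the range of the group. Of 30 named genes examined, 1.5 would be picked out in this way by chance. Por, the electron donor of the Cyp2c enzymes, was at 318.7 CPM in TET1 KO replicate 4, with 0.849 of the group's range between it and the next liver. Ephx2 was lowest in TET1 KO replicate 2, at 903 CPM, with a gap of 0.863 of the range. Cyp2e1, a pericentral P450, was lowest in TET1 KO replicate 1, at 3953 CPM, with a gap of 0.84 of the range. No Cyp2c member was picked out in this way.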

How the results depend on the processing

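Cyp2c54 was called in all 14 alternatives, and Cyp2c44, Cyp2c67 and Cyp2c70 kept their direction and were not called in any. DESeq2 called 2 members higher and 3 lower, adding Cyp2c37 (0.8988, adjusted p = 0.0165), Cyp2c39 (-2.019, 0.02) and Cyp2c68 (-0.6102, 0.0117) to the members called by edgeR. With the replicate number as a block, 3 members were called lower, as Cyp2c29 (-1.557, 0.0452) and Cyp2c68 (-0.6948, 0.0329) joined Cyp2c38. The block ended the call of Cyp3a11 (-1.224, 0.068). The numbers do not pair the livers, since the deviations of livers with the same number correlated at 0.209, -0.123 and -0.0964. The block moved the calls over all genes from 129 higher and 169 lower to 670 and 656, DESeq2 to 693 and 707, scaling by library size only to 107 and 312, and no filter to 245 and 347. Leaving out 1 liver gave 16 higher and 22 lower without WT replicate 2 and 427 and 464 without TET1 KO replicate 4, and 0 to 3 members called lower. Over these fits the log2 fold change ran from -2.582 to -2.013 for Cyp2c38, from -2.488 to -1.478 for Cyp2c39, from -0.7046 to -0.4922 for Cyp2c68 and from -0.1026 to 0.2383 for Cyp2c50. Cyp2c50 also changed sign under library size scaling (-0.0409) and the block (-0.04195). Por changed sign under library size scaling (-0.02731), the block (-0.2014) and leaving out a liver (-0.24 to 0.2899), Hnf4a (-0.0159 to 0.1797) and Cyp2b10 (-1.205 to 5.845e-05) on leaving out a liver, and Cyp2e1 under the block (-0.007028). The cause of these shifts was not tested. Cyp2c39 gave no value with at least 10 counts in every library.

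With 3 and 4 livers, a liver such as WT replicate 2 or TET1 KO replicate 4 decides how many genes pass. Cyp2c39 rests on 0 to 80 counts per liver, while every other member had at least 151.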
